A study of Mus musculus with 12 samples.

Results

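The 10 genes described here encode transcription factors of activated T cells: the Fos proteins (Fos, Fosb, Fosl1, Fosl2), the Jun proteins (Jun, Junb, Jund), the Batf proteins (Batf, Batf3) and Irf4. They were found by their symbols in a table of 45777 genes, of which 23585 had a count above 0 in at least 3 libraries and were tested, among them all 10 factors. RNA was sequenced from CD4+ T cells of the spleen of wild-type Balb/c mice, aged 7 weeks by the sample labels, although the study's methods name B6 mice. All 12 samples were stimulated for 3 days with an anti-CD3 antibody at 0.5 ug/mL, which engages the T-cell receptor complex, so no unstimulated cells were compared. One group had no further agent (anti-CD3 alone). The others also received *L. acidophilus*, a lactic acid bacterium, or FK506 (tacrolimus), an inhibitor of the phosphatase calcineurin, or both agents (the combination), which made 4 groups of 3 libraries. The study's methods describe heat-inactivated bacteria and give doses of both agents for splenocyte cultures, but state none for the RNA sequencing. The labels give no dose of the bacterium or of FK506 and do not say whether replicates came from separate animals or cultures, so p-values measure the spread between these libraries, which may be technical.

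Fos proteins bind DNA as heterodimers with Jun proteins, whereas Jun proteins can also pair with each other, and the dimers form activator protein 1 (AP-1). T-cell receptor signals raise AP-1 through kinase cascades and, in parallel, activate NFAT through calcineurin, and AP-1 and NFAT bind many cytokine genes together. Batf and Batf3 have a leucine zipper but lack the activation domain of Fos. They pair with Jun proteins, and these dimers bind composite DNA elements with Irf4, an interferon regulatory factor that T-cell receptor signals induce and that helper T-cell differentiation requires.

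Total counts per library ranged from 45416397 to 64658165, so Junb and Irf4 rested on 13774 to 77462 counts per library, while Fosb rested on 26 to 796 and Batf3 on 85 to 2518. T-cell markers were abundant in every library, with *Cd4* at 143 ± 5.3 FPKM (fragments per kilobase of transcript, scaled to the size of the library; mean ± SD) and *Cd3e* at 151 ± 13.2 FPKM with anti-CD3 alone. With the combination they were at 245 ± 9.6 and 295 ± 10.2 FPKM. Of 7 T-cell markers, 3 were higher and none lower with the combination than with anti-CD3 alone (adjusted p under 0.05 in edgeR), where 21.5% of all genes were higher and 21.8% lower. In counts over genes, replicates 2 and 3 lay closest to each other with the combination (chi-square per degree of freedom 4.52) and with *L. acidophilus* (8.95), and replicate 1 stood apart from them there, whereas all other pairs within a group were at 43.7 to 188. Markers of other cells also moved with the groups. The summed FPKM of 8 B-cell markers was 38.8 to 62.8 with anti-CD3 alone and 26.1 to 37.5 with *L. acidophilus*, and it was 231 to 465 with FK506 and 129 to 154 with the combination. The summed FPKM of 8 myeloid markers was 0.225 to 0.430, 0.198 to 0.996, 1.1 to 7.81 and 22.3 to 47.5 in the same order. *S100a8* was at 0 in every library and *S100a9* in every library of the first 3 groups. The part of these cells in the results below was not tested, and in bulk RNA fewer cells of a type and less RNA per cell cannot be told apart.

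The regions just upstream of 5 of the factors are shown because these genes gave the largest rises (Fosb, Fos) and falls (Batf3, Batf) with the combination, together with Irf4, the partner of Batf. The bases run 5′ to 3′ on the gene's strand up to the annotated start, from RefSeq on build GRCm38.p6, a reference that need not match the cells' strain. For Fosb the last 73 of the 250 bases were left out because they lie within the gene's annotated span. Its motif positions are therefore counted from a start inside that span. Capitals mark the core motif of NFAT, GGAAA, read on either strand (as TTTCC on the other), the TATA box TATAAA, and TGACG, the half-site of the cAMP response element.
Fos, chr12:85473640-85473889, + strand: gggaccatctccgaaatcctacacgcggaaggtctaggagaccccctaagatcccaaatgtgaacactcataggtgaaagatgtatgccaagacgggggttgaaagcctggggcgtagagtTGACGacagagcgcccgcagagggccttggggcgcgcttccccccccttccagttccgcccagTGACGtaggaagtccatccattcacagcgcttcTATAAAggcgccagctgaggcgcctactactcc
Fosb, chr7:19310119-19310295, - strand: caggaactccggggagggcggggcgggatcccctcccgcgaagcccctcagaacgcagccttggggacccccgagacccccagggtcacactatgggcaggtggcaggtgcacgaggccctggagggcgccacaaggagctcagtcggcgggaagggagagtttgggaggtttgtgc
Batf3, chr1:191098164-191098413, + strand: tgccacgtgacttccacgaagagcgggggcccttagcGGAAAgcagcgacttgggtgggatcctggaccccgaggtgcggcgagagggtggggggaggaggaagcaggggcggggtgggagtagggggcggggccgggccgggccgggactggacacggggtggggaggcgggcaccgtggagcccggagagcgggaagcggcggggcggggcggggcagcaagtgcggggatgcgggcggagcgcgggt
Batf, chr12:85686470-85686719, + strand: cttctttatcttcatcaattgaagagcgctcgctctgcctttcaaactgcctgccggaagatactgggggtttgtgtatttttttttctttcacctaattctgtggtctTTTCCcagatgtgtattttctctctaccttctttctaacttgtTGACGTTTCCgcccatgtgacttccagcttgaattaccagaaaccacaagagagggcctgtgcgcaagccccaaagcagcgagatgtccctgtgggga
Irf4, chr13:30748983-30749232, + strand: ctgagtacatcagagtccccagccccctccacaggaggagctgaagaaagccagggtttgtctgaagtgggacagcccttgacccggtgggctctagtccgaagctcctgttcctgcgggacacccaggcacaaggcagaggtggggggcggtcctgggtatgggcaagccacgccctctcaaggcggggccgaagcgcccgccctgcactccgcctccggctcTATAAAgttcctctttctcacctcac

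The promoter windows differed in these motifs. Batf held 2 NFAT cores, at 141 to 137 and 93 to 89 bases before the start, and Batf3 held 1 at 213 to 209. Of the factors whose windows are not shown, Jun held 1 at 59 to 55. No match was found in the Fos, Fosb and Irf4 windows, and 55.6% of all 32851 RefSeq windows of 250 bases held one. TGACG occurred in Fos at 129 to 125 and 66 to 62 bases before the start and in Batf at 98 to 94 (17.8% of all windows). It also occurred in the stretch of Fosb that is not shown, at 60 to 56, which lies within the annotated span of the gene. Junb, not shown, also held TGACG, at 106 to 102. A TATA box lay 33 to 28 bases before the Fos start and 26 to 21 bases before the Irf4 start (12.4% of windows). The AP-1 site TGANTCA was found in none of the 9 factors with a window and in 6.75% of all windows. Its 8-base relative TGANNTCA was found in 2 factors, as TGACATCA in Jun at 45 to 38 and TGAAATCA in Jund at 61 to 54 (11.9% of windows). All motifs were searched on both strands, and a match describes letters in the window, not a bound site.

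The first question was what the combination did to these factors in cells stimulated with anti-CD3. Of the 10 factors, 2 rose (Fos, Fosb), 5 fell (Fosl2, Junb, Batf, Batf3, Irf4) and 3 did not pass the test (Fosl1, Jun, Jund), calling a gene at an adjusted p under 0.05 in edgeR. Over all genes tested, 21.5% were called higher and 21.8% lower in this comparison, so a large share of all genes moved too. The median log2 fold change of the 10 factors was -0.70, against 0.02 for all genes. The 7 calls also held in replicates 2 and 3 alone. For each of the 7 called factors the libraries of the groups did not overlap, as was also so for 26.2% of all genes in the higher and 24.7% in the lower direction.

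**Figure D1:**
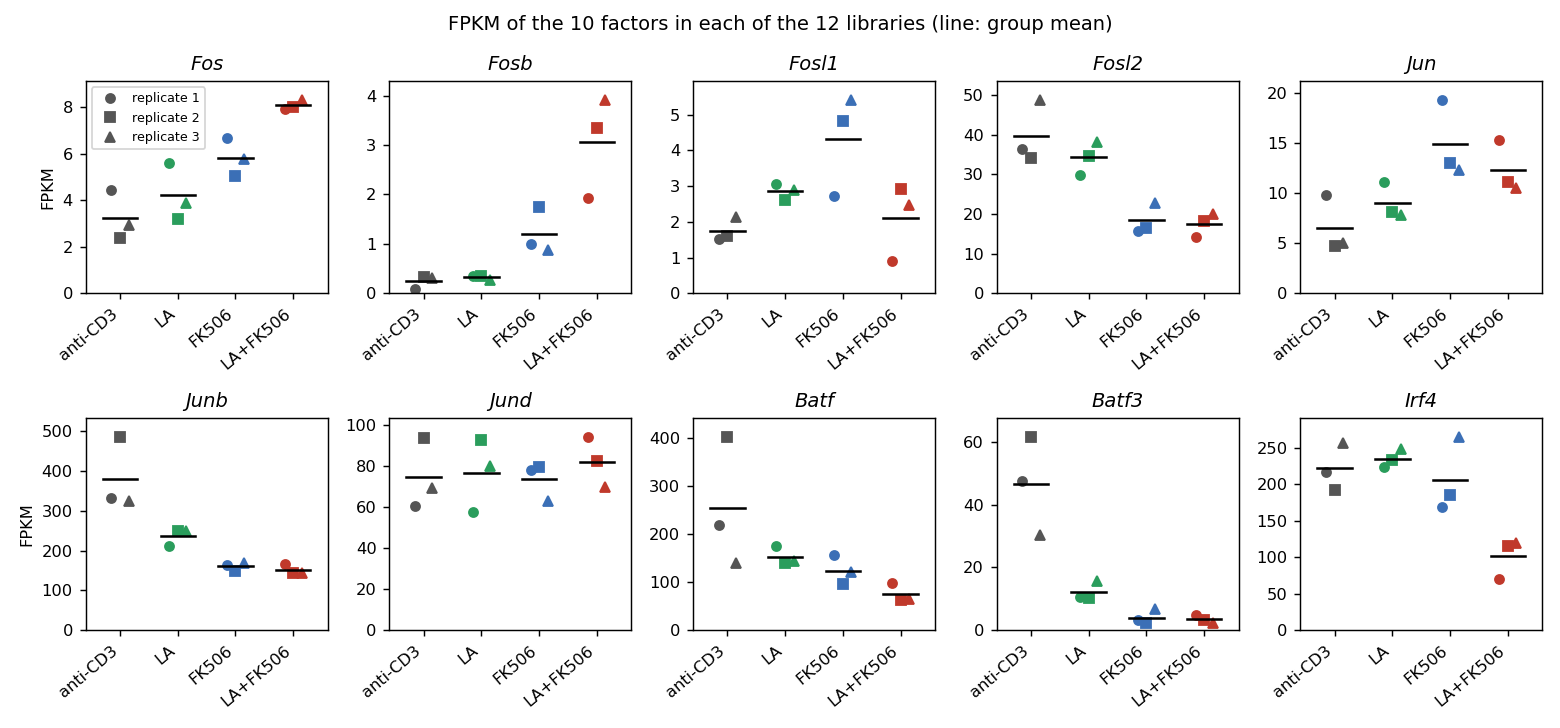
FPKM (linear, scaled to transcript length and library size) of each factor in the 12 libraries, by treatment in addition to anti-CD3 (LA, *L. acidophilus*), with an axis from 0 per gene, symbols for replicate numbers and a line at each group mean. Fos and Fosb are highest with the combination, Junb and Batf3 are highest with anti-CD3 alone, and Irf4 is lower with the combination (69.9 to 120 FPKM) than in the other 3 groups (169 to 265 FPKM).

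Among the Fos genes, the immediate early gene *Fosb* (gene ID 14282, chr7:19302696-19310118, - strand, up to 5 exons) rose the most. Its level was 0.0923, 0.336 and 0.317 FPKM in the 3 libraries of anti-CD3 alone, 0.346, 0.346 and 0.274 with *L. acidophilus*, 0.999, 1.74 and 0.881 with FK506, and 1.93, 3.34 and 3.90 with the combination. The combination libraries lay above the FK506 libraries, and these above both groups without FK506, which overlapped. *Fosb* was 10.4-fold higher with the combination than with anti-CD3 alone (log2 fold change 3.39, SE 0.45, adjusted p = 0.000112) and 4.42-fold higher with FK506 (2.14, SE 0.43, adjusted p = 0.00554). Between the combination and FK506 the log2 difference was 1.24 (SE 0.41) with an adjusted p of 0.0517 in edgeR. This difference passed in 9 of 9 other fits, with adjusted p from 0.0101 to 0.0475, in 4 of 12 fits that left out 1 library, and not when a 2-fold threshold was added to the same edgeR fit.

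*Fos* (gene ID 14281, chr12:85473890-85477274, + strand, up to 4 exons), the founding member of the family, is also an immediate early gene. It stood at 4.44, 2.36 and 2.92 FPKM with anti-CD3 alone, 5.59, 3.19 and 3.88 with *L. acidophilus*, 6.68, 5.03 and 5.75 with FK506, and 7.90, 8.0 and 8.28 with the combination. All combination libraries were above all others, and those with *L. acidophilus* overlapped both anti-CD3 alone and FK506. *Fos* was 2.15-fold higher with the combination than with anti-CD3 alone (log2 fold change 1.1, SE 0.25, adjusted p = 0.00372). With FK506 it had a log2 fold change of 0.72 (SE 0.25) that did not pass (adjusted p = 0.0616), although the libraries did not overlap. It passed in 7 of 9 other fits, with adjusted p from 0.00996 to 0.115, in 2 of 12 fits that left out 1 library, and not with an added 2-fold threshold.

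*Fosl2* (gene ID 14284, chr5:32136472-32157840, + strand, up to 4 exons), a Fos relative that lacks the strong activation domain of Fos, was the most abundant Fos gene per length and went the other way. Its level was 36.5, 34.1 and 48.7 FPKM with anti-CD3 alone, 29.8, 34.7 and 38.3 with *L. acidophilus*, 15.8, 16.5 and 22.8 with FK506, and 14.2, 18.2 and 20.0 with the combination. The groups with FK506 overlapped each other and lay below both groups without it, which also overlapped. *Fosl2* fell 2.62-fold with the combination (log2 fold change -1.39, SE 0.18, adjusted p = 9.66e-05) and 2.32-fold with FK506 (-1.22, SE 0.18, adjusted p = 0.000971). The combination and FK506 differed by -0.17 on the log2 scale (SE 0.18, adjusted p = 0.539).

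*Fosl1* (gene ID 14283, chr19:5447698-5455938, + strand, up to 4 exons), the other Fos relative of this kind, ranged from 0.898 to 5.40 FPKM. Group means were 1.75 ± 0.332 FPKM with anti-CD3 alone, 2.85 ± 0.228 with *L. acidophilus*, 4.31 ± 1.41 with FK506 and 2.1 ± 1.06 with the combination (SD, n = 3). It was called higher with FK506 (log2 fold change 1.19, SE 0.37, adjusted p = 0.0409) and lower with the combination than with FK506 (-1.15, SE 0.37, adjusted p = 0.0469), where libraries overlapped. These calls held in 4 and 2 of the 12 fits without 1 library and in 8 and 5 of 9 other fits. *Fosl1* shares 2776 bases with the neighbouring gene *Ccdc85b*, which had 585 to 2104 counts per library against 111 to 517 for *Fosl1*. Whether counting used the strand is not given in the sources used here, so its values are uncertain. *Ccdc85b* had a log2 fold change of -1.02 with FK506 (SE 0.28, adjusted p = 0.0276), opposite in sign to *Fosl1*.

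The make-up of the Fos family by FPKM differed between groups. The summed level of the 4 Fos genes was 45 ± 8.09 FPKM with anti-CD3 alone and 30.7 ± 5.09 with the combination. *Fosl2* made up 88.2% ± 2.2 of it with anti-CD3 alone, 82.1% ± 4.55 with *L. acidophilus*, 61.5% ± 3.53 with FK506 and 56.9% ± 0.814 with the combination (SD, n = 3). The share of *Fos* was 7.32% ± 2.72, 10.3% ± 3.61, 20.0% ± 4.83 and 26.8% ± 4.3 in the same order, and that of *Fosb* 0.559%, 0.781%, 4.18% and 9.77%. No test was run on these shares, which describe RNA and not protein.

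**Figure D2:**
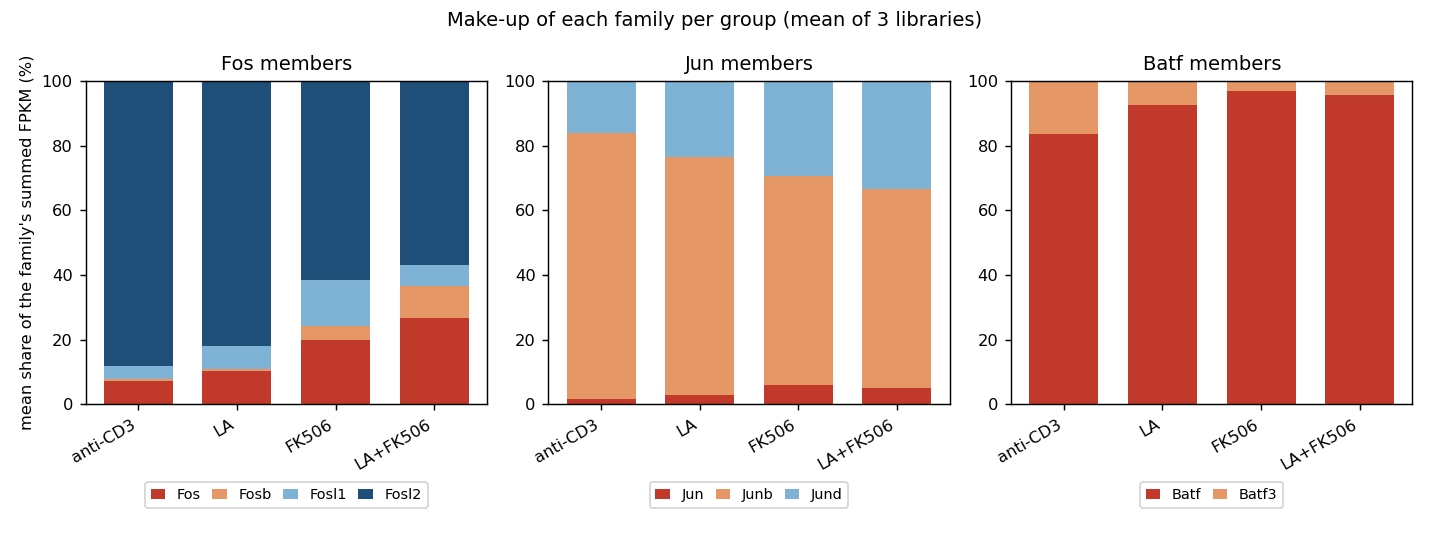
Mean share (%) of each gene in the summed FPKM of its family, by group, from 3 libraries each (LA, *L. acidophilus*). Fosl2 takes 88.2% of the Fos family with anti-CD3 alone and 56.9% with the combination, and Junb takes 82.4% and 61.6% of the Jun family.

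Among the Jun genes, *Junb* (gene ID 16477, chr8:84976909-84978748, - strand, 1 exon), the most abundant factor of the 10 by mean FPKM and a partner of Batf in T cells, fell. It stood at 331, 486 and 325 FPKM with anti-CD3 alone, 212, 249 and 249 with *L. acidophilus*, 163, 150 and 170 with FK506, and 165, 144 and 143 with the combination. All libraries with *L. acidophilus* lay below those with anti-CD3 alone and above those with FK506, and the FK506 and combination libraries overlapped. *Junb* fell 2.92-fold with the combination (log2 fold change -1.55, SE 0.17, adjusted p = 3.63e-05) and 2.58-fold with FK506 (-1.37, SE 0.17, adjusted p = 0.000398). With *L. acidophilus* the log2 fold change of -0.78 (SE 0.17) did not pass (adjusted p = 0.0743).

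*Jun* (gene ID 16476, chr4:95049036-95052222, - strand, 1 exon), the founding Jun protein, was at 4.74 to 9.85 FPKM with anti-CD3 alone, 7.88 to 11.2 with *L. acidophilus*, and reached 12.4 to 19.3 with FK506 and 10.5 to 15.4 with the combination. In each group the library numbered replicate 1 was the highest. *Jun* rose 2.08-fold with FK506 (log2 fold change 1.06, SE 0.30, adjusted p = 0.0272), a call lost without replicate 2 or 3 of anti-CD3 alone or replicate 1 or 2 of FK506, and in the fit of only the 6 libraries compared (adjusted p = 0.0631). With the combination its log2 fold change was 0.71 (SE 0.29) and did not pass (adjusted p = 0.0725), although it passed in 7 of 9 other fits, with adjusted p from 0.000689 to 0.10, in 1 of 12 fits that left out 1 library, and not when a 2-fold threshold was added to the same edgeR fit. *Jund* (gene ID 16478, chr8:70697739-70700616, + strand, 1 exon), a Jun protein often present before stimulation, was at 57.5 to 94.0 FPKM over the 12 libraries, with the groups overlapping in every comparison. Its log2 fold change was -0.06 (SE 0.21, adjusted p = 0.84) with the combination. By FPKM, the share of *Junb* in the Jun family was 82.4% ± 0.877 with anti-CD3 alone and 61.6% ± 2.16 with the combination, and that of *Jund* 16.1% ± 1.11 and 33.4% ± 1.91.

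*Batf3* (gene ID 381319, chr1:191098414-191108943, + strand, up to 3 exons), known for its role in cross-presenting dendritic cells and also expressed by activated T cells, had the largest fall of the 10. Its level was 47.6, 61.7 and 30.5 FPKM with anti-CD3 alone, 10.6, 10.2 and 15.7 with *L. acidophilus*, 3.05, 2.25 and 6.65 with FK506, and 4.80, 3.23 and 2.32 with the combination. Libraries with *L. acidophilus* lay between anti-CD3 alone and the 2 groups with FK506, without overlap. *Batf3* fell 15.5-fold with the combination (log2 fold change -3.95, SE 0.46, adjusted p = 5.11e-05) and 12.7-fold with FK506 (-3.66, SE 0.45, adjusted p = 0.000397). With *L. acidophilus* its log2 fold change was -2.03 (SE 0.42) and did not pass (adjusted p = 0.0701). The summed FPKM of 6 dendritic cell markers was 2.2 to 2.36 with anti-CD3 alone and 9.79 to 11.8 with the combination. Of the 5 tested, 2 were called higher (Flt3, Zbtb46) and none lower, and *Clec9a* was at 0 in the first 3 groups. Their part in the result was not tested.

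*Batf* (gene ID 53314, chr12:85686720-85709087, + strand, up to 3 exons), which Th17 differentiation requires, was far more abundant than *Batf3*. It stood at 218, 402 and 139 FPKM with anti-CD3 alone, 176, 139 and 143 with *L. acidophilus*, 156, 95.4 and 120 with FK506, and 97.2, 63.5 and 65 with the combination. The anti-CD3 libraries were spread widely, and replicate 2 stood highest. *Batf* fell 3.91-fold with the combination (log2 fold change -1.97, SE 0.35, adjusted p = 0.000842). With FK506 it was called lower (-1.17, SE 0.34, adjusted p = 0.0340) although libraries overlapped, and without anti-CD3 replicate 2 the value was -0.64 (adjusted p = 0.151). This call was also lost without replicate 2 or replicate 3 of FK506, and it held in 5 of 9 other fits, with adjusted p from 0.00364 to 0.0954. Between the combination and FK506 the log2 difference was -0.80 (SE 0.34, adjusted p = 0.127).

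*Irf4* (gene ID 16364, chr13:30749233-30766981, + strand, up to 9 exons), the partner of Batf, was called lower in each comparison of the combination and in neither single treatment against anti-CD3 alone. Its level was 217, 192 and 257 FPKM with anti-CD3 alone, 223, 233 and 248 with *L. acidophilus*, 169, 185 and 265 with FK506, and 69.9, 116 and 120 with the combination. All 3 combination libraries lay below the other 9, which overlapped. *Irf4* was 2.52-fold lower with the combination than with anti-CD3 alone (log2 fold change -1.33, SE 0.21, adjusted p = 0.000366), 2.17-fold lower than with FK506 (-1.12, SE 0.21, adjusted p = 0.00392) and 2.53-fold lower than with *L. acidophilus* (-1.34, SE 0.21, adjusted p = 0.000597). Each of these calls held in all 12 fits that left out 1 library. The log2 fold change was -0.21 (SE 0.21, adjusted p = 0.519) with FK506 and 0.01 (SE 0.21, adjusted p = 1) with *L. acidophilus*. B cells and plasma cells also express *Irf4*. The B-cell markers were higher with the combination than with anti-CD3 alone in 5 of 8 cases, none lower, and all 8 were lower with the combination than with FK506. The summed FPKM of 4 plasma cell markers was 97.3 to 159 with anti-CD3 alone and 69.6 to 74.2 with the combination. Of these 4, *Xbp1*, which made up most of the sum, and *Sdc1* were called lower, *Jchain* was called higher (0.278 ± 0.395 against 20.5 ± 0.799 FPKM, adjusted p = 0.00470) and *Tnfrsf17* did not pass.

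**Figure D3:**
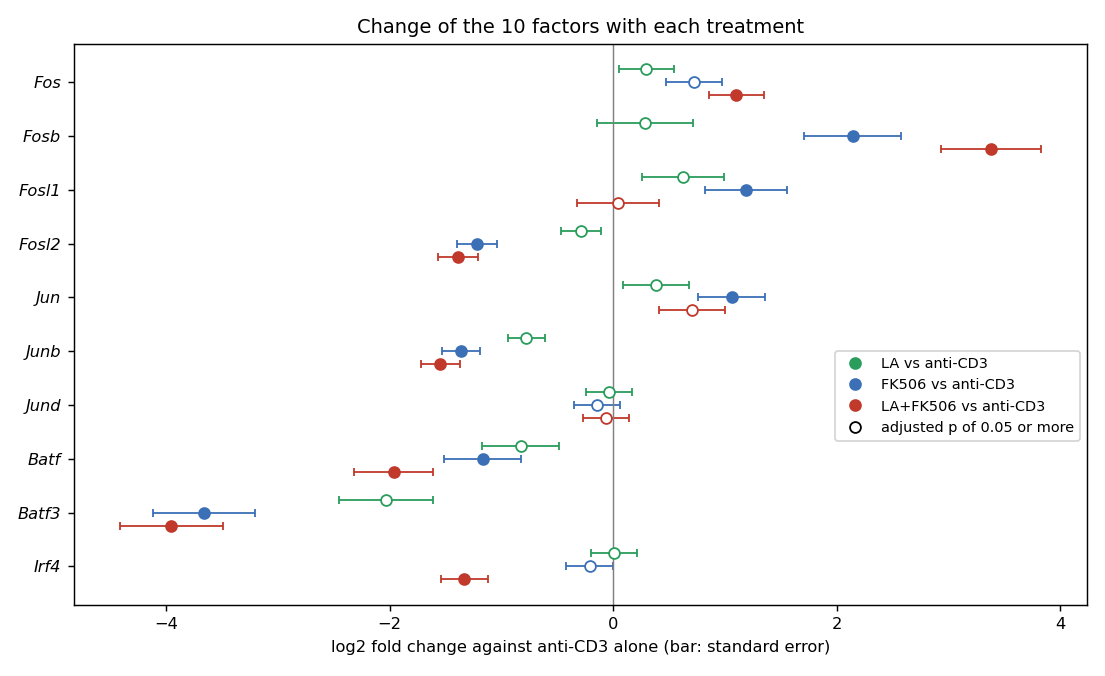
Log2 fold change of each factor (edgeR, bar: standard error) with *L. acidophilus* (LA), FK506 or both against anti-CD3 alone, where open circles did not pass an adjusted p of 0.05. With the combination Fosb stands at 3.39 and Jund at -0.06, and the 3 comparisons share the anti-CD3 libraries.

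The single treatments were compared with anti-CD3 alone on the same libraries as controls, so the 3 comparisons are not independent of each other. With FK506, 3 factors rose (Fosb, Fosl1, Jun) and 4 fell (Fosl2, Junb, Batf, Batf3), where 10.2% of all genes were called higher and 8.81% lower. All 8 B-cell markers were also called higher. Without replicate 2 of anti-CD3 alone, or without replicate 2 of FK506, the count of called factors was 4 in place of 7, with Fosl1, Jun and Batf lost in both, while the calls over all genes went from 4483 to 3295 and 2482. With *L. acidophilus*, no factor was called by edgeR, where 0.178% of all genes were called higher and 0.0509% lower. At an unadjusted p under 0.05 the count was 3 factors (Junb, Batf and Batf3, all lower), DESeq2 called 2 (Junb and Batf3) and limma on log2(FPKM + 1) called 0. Over all genes the same rules took 14.8%, 5.86% and 0.365%, in both directions together. The DESeq2 share here is of 18984 genes (1112 called), and the others are of 23585. Junb and Batf3 were also called without replicate 3 of anti-CD3 alone, the library in which Batf3 was lowest of the 3, and Batf3 alone without replicate 3 of FK506.

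Compared with FK506, the combination lowered Fosl1 and Irf4 and raised none, where 8.18% of all genes were called higher and 10.9% lower. All 8 B-cell markers were also called lower in that comparison. Compared with *L. acidophilus*, the combination raised Fos and Fosb and lowered Fosl2, Junb, Batf, Batf3 and Irf4, where 16.6% of all genes were called higher and 17.0% lower. *Batf3* was 3.80-fold lower in that comparison (log2 fold change -1.92, SE 0.43, adjusted p = 0.00485) and *Junb* 1.71-fold lower (-0.77, SE 0.17, adjusted p = 0.00414). The call of *Fos* there (log2 fold change 0.81, adjusted p = 0.0250) was lost without replicate 2 or 3 of *L. acidophilus* or any 1 library of the combination, and that of *Batf* (-1.14, adjusted p = 0.0237) without replicate 1 of *L. acidophilus* or replicate 2 or 3 of the combination. Between the single treatments, *Fosb* was higher with FK506 than with *L. acidophilus*, and *Fosl2* and *Batf3* were lower, where 4.80% of all genes were called higher and 2.72% lower. *Fosb* and *Batf3* were lost there without replicate 2 or 3 of *L. acidophilus* or replicate 2 of FK506, and *Batf3* also without replicate 1 of FK506 or replicate 2 of the combination.

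Whether the combination equalled the sum of both log2 fold changes, each taken alone, was tested as a departure (an interaction term in edgeR). No factor was called by the main edgeR fit, against 1.35% of all genes called higher and 3.00% called lower than the sum. With the replicate number as a block, edgeR called 3 factors (Fosl1, Jun, Irf4) and 1578 genes in all. At an unadjusted p under 0.05 the count was 4 factors, DESeq2 called 3 (Fosl1, Batf3, Irf4) and limma on log2(FPKM + 1) called 0. Over all genes the same rules took 19.6%, 14.3% and 7.10%, in both directions together. The DESeq2 share here is of 16701 genes (2380 called), and the others are of 23585. *Irf4* came nearest, with an observed log2 fold change of -1.33 against a sum of -0.20, a departure of -1.13 (SE 0.29, adjusted p = 0.0531) that ranged from 0.00741 to 0.0863 in adjusted p over 8 other fits, of which 4 passed. *Fosl1* had an observed value of 0.04 against a sum of 1.82, a departure of -1.77 (SE 0.52, adjusted p = 0.0777) that passed in 3 of 8 other fits. *Jun* had an observed value of 0.71 against a sum of 1.44. Its departure of -0.74 (SE 0.41, adjusted p = 0.367) passed in 2 of 8 other fits. *Batf3* had an observed value of -3.95 against a sum of -5.69, a departure of 1.74 (SE 0.59, adjusted p = 0.128). For *Fos*, *Fosl2*, *Jund* and *Batf* the departure was at most 0.12 in size, smaller than its standard error.

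**Figure D4:**
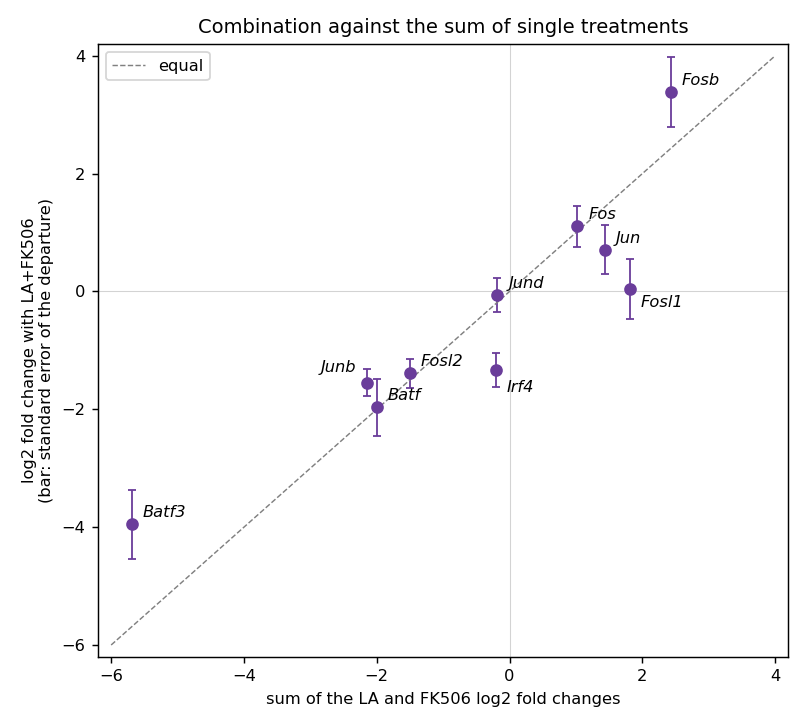
Log2 fold change with the combination (LA+FK506) against the sum of the log2 fold changes with *L. acidophilus* (LA) and FK506 alone, for the 10 factors, with bars for the standard error of the departure and a dashed line where they are equal. Irf4 and Fosl1 lie below the line (departures of -1.13 and -1.77) and Batf3 above it (1.74), and none of these departures passed in the main edgeR fit. With the replicate number as a block, those of Irf4 and Fosl1 passed.

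Factors were also set beside other genes of the same pathway, each list to be read against the 21.5% of all genes called higher and 21.8% called lower with the combination. Of 14 other bZIP factors, 4 rose and 1 fell with the combination against anti-CD3 alone, with a median log2 fold change of 0.17. *Bach1*, a repressor that competes at related DNA sites, rose from 1.83 ± 0.308 to 6.99 ± 0.759 FPKM (log2 fold change 1.73, adjusted p = 2.78e-05), and *Creb1* rose with 0.65 (adjusted p = 0.000379). *Atf3*, a stress-induced factor, fell from 49.7 ± 10.0 to 10.3 ± 0.991 FPKM (-2.48, adjusted p = 3.08e-05).

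Of the 8 other interferon regulatory factors measured, 5 rose (Irf1, Irf2, Irf5, Irf8, Irf9), none fell and 3 did not pass, with a median log2 fold change of 0.66 in the combination against anti-CD3 alone. *Irf5* rose with 0.86 (SE 0.21, adjusted p = 0.00578) and *Irf1* with 0.79 (SE 0.11, adjusted p = 0.000183). *Irf8*, also a factor of B cells and dendritic cells, was at 23.8 FPKM with anti-CD3 alone, 70.2 with FK506 and 46.5 with the combination, the order of the B-cell markers, and their part in it was not tested.

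Of 18 kinases and adaptors upstream of AP-1, 7 rose and 2 fell with the combination (21.5% and 21.8% of all genes), with a median log2 fold change of 0.00. *Elk4*, a factor that acts with serum response factor at immediate early genes, rose from 11.6 ± 3.43 to 28.8 ± 7.10 FPKM (log2 fold change 1.11, SE 0.20, adjusted p = 0.000801). *Malt1*, a protease of antigen receptor signalling, fell with -0.79 (adjusted p = 0.00327) and the kinase *Map2k1* with -0.47 (adjusted p = 0.0325).

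Of 20 known targets of AP-1, Batf or Irf4 in T cells, 7 rose, 8 fell and 5 did not pass with the combination (21.5% of all genes rose and 21.8% fell), with a median log2 fold change of 0.68. The Th17 cytokine gene *Il17f* rose from 0.215 ± 0.214 to 7.42 ± 4.16 FPKM (log2 fold change 4.89, SE 1.03, adjusted p = 0.00248) and *Il23r*, the receptor gene of Th17 maintenance, from 0.140 ± 0.0473 to 4.17 ± 0.532 FPKM (4.65, SE 0.55, adjusted p = 5.63e-05). *Il21*, a cytokine of follicular helper and Th17 cells, fell from 42.6 ± 13.8 to 1.03 ± 0.0843 FPKM (-5.56, SE 0.48, adjusted p = 9.97e-06) and the Th2 cytokine gene *Il5* from 8.17 ± 2.90 to 0.379 ± 0.254 FPKM (-4.58, SE 0.71, adjusted p = 0.000316). *Il21* also had a departure from the sum of -3.21 (SE 0.57, adjusted p = 0.0130).

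Over the 12 libraries, the 10 factors did not vary as one block. *Junb* and *Batf3* had a Pearson correlation of 0.97 in TMM-scaled log2 counts (log2 CPM), whereas *Fosb* had -0.87 with *Batf3* and -0.86 with *Fosl2*. These values describe 12 libraries that share 4 treatments and carry no test. Among 12221 genes, the one most like *Fos* was *Fgl2* (r = 0.99), followed by *Arhgef11* and *Ddx43*. The one most like *Fosb* was *Lpl* (r = 0.98) and most like *Fosl2* was *Bcorl1* (r = 0.99), with the interleukin 12 receptor gene *Il12rb2* ranked 3. For *Batf* it was *Mydgf* (r = 0.99), for *Batf3* *Adora2b* (r = 0.98), with *Junb* ranked 2, and for *Irf4* *Eif4enif1* (r = 0.99). *Jund* had the weakest likeness of the 10, to *Scand1* (r = 0.88).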

How the data were processed

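RNA-seq of 12 libraries in 4 groups of 3 was analysed from 1 table of 45777 genes. The authors deposited whole-number counts per gene, which are not normalized, FPKM values scaled to transcript length and library size, and TPM values, which were not used here. The submitters' processing notes name bcl2fastq 2.20.0, Trimmomatic, HISAT2 2.1.0, StringTie 2.1.3b and the mouse build mm10 (GRCm38), with no role for each. The deposited counts may be rounded estimates.

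The 23585 genes with counts over 0 in 3 or more libraries were fitted in R 4.3.3 with edgeR 4.0.16 (quasi-likelihood test, TMM factors, 1 mean per group, all 12 libraries). A call needed a p under 0.05 after Benjamini-Hochberg adjustment over all genes, with no fold threshold. The standard error was taken as the size of the log2 fold change over the root of its F statistic. An exact permutation test of 3 against 3 libraries cannot go below p = 0.1. The factors, gene lists, motifs and tests were chosen with earlier results of these data known. Named genes are all 10 factors and, of each list, up to 2 largest rises and 2 largest falls among called genes with a mean FPKM of at least 1. One gene that this rule names is not reported here. The 3 genes most like a factor were ranked by Pearson correlation. Irf2, Irf8 and Irf9 and *Ccdc85b* were named after their values were seen, as were the marker genes.

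Alternatives were no TMM factors, DESeq2 1.42.0, other filters, limma 3.58.1 on log2(FPKM + 1) or log2(FPKM + 0.1), the replicate number as a block, replicates 2 and 3 alone, an added 2-fold threshold, the 6 libraries compared, and each library left out. Same-numbered libraries deviated together in some groups, with correlations over 12221 genes of 0.45, 0.28 and 0.21 between anti-CD3 alone and *L. acidophilus*. They were 0.23, 0.24 and 0.14 between *L. acidophilus* and the combination, and 0.50, 0.09 and 0.38 between *L. acidophilus* and FK506. In every other pair of groups a value was under 0.1. What the numbers mark is not given. The main fit therefore left libraries unpaired, and its p-values ignore any pairing, while the block fit pairs them over all groups. Scripts were tested on simulated data. Sequences and positions are from RefSeq (GRCm38.p6) and exon numbers and strands from GENCODE. *Fosl1* has no promoter entry. Figures were drawn with matplotlib 3.10.9.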

Additional observations from a re-analysis of the deposited data

How the results depend on the processing

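The 7 calls in the combination against anti-CD3 alone (Fos, Fosb, Fosl2, Junb, Batf, Batf3, Irf4) held in 9 of 9 other fits, with the 2-fold threshold added, and in each of 12 fits that left out 1 library. Leaving out 1 library at a time, the number of factors called ranged from 4 to 8 in FK506 against anti-CD3 alone, from 0 to 2 in *L. acidophilus* against anti-CD3 alone, from 1 to 3 in the combination against FK506, from 1 to 4 in FK506 against *L. acidophilus* and from 0 to 1 in the departure from the sum. The calls over all genes ranged from 2482 to 4719, 1 to 383, 2332 to 5499, 808 to 2195 and 331 to 1455 in the same order. The 2 counts did not always move together. In FK506 against anti-CD3 alone, 5 factors and 4719 genes were called without replicate 3 of anti-CD3 alone. Without replicate 1 of *L. acidophilus* it was 8 factors and 4452 genes. For *L. acidophilus* against anti-CD3 alone, DESeq2 called 2 factors and the fit with no filter on low counts called 1, against 0. For the departure from the sum, DESeq2 called 3, edgeR's own filter 1, no filter 1 and replicates 2 and 3 alone 2, against 0 (over all genes 2380, 1272, 998 and 462, against 1025). The cause was not tested. With the replicate block the departure was called for 3 factors (Fosl1, Jun, Irf4) and 1578 genes in all, *Jun* passed in the combination against anti-CD3 alone, *Fos* in FK506 against anti-CD3 alone and *Fosb* in the combination against FK506, while *Batf3* was lost and *Jun* gained in FK506 against *L. acidophilus*. The block changed no factor's call between anti-CD3 alone and *L. acidophilus* or between *L. acidophilus* and the combination. The block pairs same-numbered libraries over all groups, although for the other pairs of groups a correlation of same-numbered libraries was under 0.1 in each.

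Of 1530 values of single factors under other settings, 1411 kept their call, 60 newly passed the test, 59 no longer passed and 0 were called in the opposite direction, while 51 values that passed in neither fit changed sign, 28 of them of Jund. Without TMM factors the median log2 fold change of all genes in the combination against anti-CD3 alone was 0.23 in place of 0.02, and the 7 calls and their directions held. Over all genes, *L. acidophilus* against anti-CD3 alone gave 54 calls in edgeR, 1112 in DESeq2 and 115 with no filter. *Fosb* with anti-CD3 alone (26 to 74 counts per library) and *Batf3* with FK506 (85 to 266) were among the shallowest values, and *Fosb* with *L. acidophilus* had 58 to 93. FPKM values give no interval of counting error, and each group has 3 libraries.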

Other observations

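Other immediate early and stress genes, which are induced through some of the same pathways as *Fos*, were called in both directions with the combination against anti-CD3 alone. Of 15 measured, 5 rose, 5 fell and 5 did not pass, where 21.5% of all genes were called higher and 21.8% lower, with a median log2 fold change of 0.59 against 0.02 for all genes tested. *Zfp36l1*, which promotes decay of cytokine mRNAs, rose from 37.9 ± 8.42 to 153 ± 15 FPKM (log2 fold change 1.81, SE 0.14, adjusted p = 8e-06, edgeR), with FK506 alone at 82.8 ± 7.20 FPKM. *Dusp1*, a phosphatase that inactivates MAP kinases, rose from 6.14 ± 1.26 to 15 ± 4.29 FPKM (1.09, SE 0.23, adjusted p = 0.00279). *Ier3* fell from 20.5 ± 6.66 to 4.71 ± 0.514 FPKM (-2.33, SE 0.25, adjusted p = 3.1e-05), and its departure from the sum of both single treatments was 1.52 (SE 0.34, adjusted p = 0.0304). *Socs3*, an inhibitor of cytokine receptor signalling, fell from 59.0 ± 17.1 to 19.2 ± 8.82 FPKM (-1.86, SE 0.32, adjusted p = 0.000694).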
